A study of Mus musculus with 9 samples.

Results

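Integrins, laminins, nidogens and fibronectin were measured on Affymetrix mouse genome arrays in mouse interlimb somites at embryonic day 9.5, in cells sorted by GFP. The genes were taken from a list of 33 symbols, each read from the probe sets that the platform annotation assigns to that gene and to no other. Of these, 32 genes had such a probe set, 19 for integrin subunits, 10 for laminin chains, Fn1, Nid1 and Nid2, among 18193 genes on the array, and Itga11 had none. Together they had 72 of 45037 tested probe sets. A gene was read from its brightest probe set over the 9 arrays. There were 3 groups of 3 arrays. In PAX3-FKHR/GFP embryos (genotype Pax3PAX3-FKHR/GFP) 1 allele of Pax3 produces PAX3-FKHR, the fusion oncoprotein of alveolar rhabdomyosarcoma, with nuclear lacZ from the same transcript, and the other allele carries GFP. In GFP/+ embryos (genotype Pax3GFP/+) 1 allele of Pax3 carries GFP and the other is intact, so that both groups have only 1 allele that can make Pax3 or its fusion. GFP positive cells were sorted from both. The third group, GFP-, holds sorted GFP negative cells, whose Pax3 genotype is not stated in the labels. According to the study's methods the fusion allele was recombined with PGK-Cre, which is active in all tissues, on a mixed C57BL6/DBA2 background, and tissue was pooled from many embryos for each sample. The labels name no treatment.

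Integrins are receptors made of 1 alpha and 1 beta chain that span the plasma membrane and tie the extracellular matrix to the actin cytoskeleton. Laminins are trimers of an alpha, a beta and a gamma chain, which polymerise into the sheet of the basement membrane, and nidogens bridge that sheet to the collagen IV network. Fibronectin is a fibrillar matrix protein that many integrins bind through its RGD motif. In the somite, a laminin-rich basement membrane lines the dermomyotome, the epithelium from which skeletal muscle progenitors come, and later separates the myotome from the sclerotome, while fibronectin surrounds the young somite and is needed for its formation.

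Marker genes were compared between the sorted groups. Because GFP is carried by a Pax3 allele, a higher Pax3 value in GFP/+ cells follows from the sort itself. The marker lists were chosen with earlier results of these data known, so they are no independent check of it. Pax3 itself stood 25.9-fold above GFP- cells in GFP/+ cells, and 12 of 14 measured dermomyotome and muscle progenitor genes were higher there. Neural crest genes were higher as well, 5 of 6, so that the GFP positive cells were not of 1 type. Over all genes 1.92% were called higher in GFP/+ cells. Array medians were 4.63 to 4.68 on the log2 scale, and within a group the correlation between arrays was 0.9962 to 0.9979. GFP/+ replicate 1 stood apart, with 91 probe sets at least 1 log2 unit below both other arrays of its group, against 0 to 10 for any other array, and 2 of the 91 belong to the genes described here. The 3 arrays per group limit the precision of every value. Values after ± are the standard error of the difference between 2 groups of n = 3, unless SD is named. The p-values are from limma, adjusted over all tested probe sets, and measure only the spread between these samples. Calls required an adjusted p under 0.05 and a log2 difference of at least 0.5, which is 1.41-fold. Because bulk RNA was hybridized, fewer cells that express a gene and less RNA per cell cannot be told apart.

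The first comparison asked which of these genes differ in GFP positive cells when 1 Pax3 allele makes PAX3-FKHR. Itgb8, the beta8 integrin chain, which pairs with alphav and binds the latent form of TGF-beta, fell to 54.7% of the GFP/+ level. It was the only gene of the 32 that was called, while 0 were called higher and 31 did not pass. Over all genes on the array 0.715% were called lower and 1.31% higher with PAX3-FKHR, and the 3.12% called lower among the 32 rest on a single gene. The median log2 difference over the 32 genes was 0.03. Of the 72 probe sets 1 was called, 1.39%, close to the 1.36% of all probe sets on the array.

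The 3 PAX3-FKHR/GFP arrays read 4.87, 5.32 and 5.47 for Itgb8 on the log2 RMA scale, the GFP/+ arrays 6.06, 6.14 and 6.07, and the GFP- arrays 7.01, 6.82 and 6.88. The 3 groups did not overlap, with GFP- cells highest, GFP/+ cells between and PAX3-FKHR/GFP cells lowest. The difference of PAX3-FKHR/GFP from GFP/+ was -0.87 ± 0.139 (95% interval -1.18 to -0.56, adjusted p = 0.00865, limma). GFP/+ cells in turn differed from GFP- cells by -0.81 ± 0.0741 (adjusted p = 5.87e-05), and PAX3-FKHR/GFP cells from GFP- cells by -1.68 ± 0.138 (adjusted p = 8.63e-06), a 3.21-fold fall. These comparisons share arrays in pairs, so their values stand side by side and are not independent of each other. Itgb8 has 1 probe set, so no other probe set bears on it. Its spread was largest in PAX3-FKHR/GFP cells (SD 0.317, against 0.0429 and 0.097). The call against GFP/+ was lost without PAX3-FKHR/GFP replicate 2 (adjusted p = 0.0558) and without GFP/+ replicate 1, 2 or 3 (0.052, 0.0856 and 0.0732), with differences between -0.85 and -0.92. It was kept without PAX3-FKHR/GFP replicate 1 or 3, but the difference was then -0.69 or -1.0, so its size depended on single arrays. In the same comparison 11 of 15 muscle differentiation genes fell and 1 rose, and 5 of 14 dermomyotome and muscle progenitor genes rose and 2 fell. Over all genes 0.715% fell and 1.31% rose. The part of these shifts in the fall of Itgb8 was not tested.

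Promoter sequence is shown for 3 genes that were called in different ways, Itgb8, which fell with PAX3-FKHR, and Itga8 and Lama2, which lay below and above GFP- cells in both GFP positive groups. Each sequence holds the 250 bases before the RefSeq start on the minus strand of GRCm38.p6, at chr12:119238277-119238526 for Itgb8, chr2:12301945-12302194 for Itga8 and chr10:27616943-27617192 for Lama2. Pax3 binds DNA through a paired domain and a homeodomain. Capitals mark the homeodomain core ATTA and the paired domain core GTCAC, each searched on both strands, so that TAAT and GTGAC are marked too.
Itgb8: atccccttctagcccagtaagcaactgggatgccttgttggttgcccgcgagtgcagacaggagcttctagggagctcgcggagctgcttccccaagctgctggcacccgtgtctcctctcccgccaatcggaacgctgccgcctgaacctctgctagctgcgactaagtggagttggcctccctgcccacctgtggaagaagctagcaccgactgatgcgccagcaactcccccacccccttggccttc
Itga8: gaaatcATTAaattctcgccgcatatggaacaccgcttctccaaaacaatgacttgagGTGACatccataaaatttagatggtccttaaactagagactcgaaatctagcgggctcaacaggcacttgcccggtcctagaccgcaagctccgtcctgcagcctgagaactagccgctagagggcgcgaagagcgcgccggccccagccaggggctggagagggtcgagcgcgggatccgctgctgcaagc
Lama2: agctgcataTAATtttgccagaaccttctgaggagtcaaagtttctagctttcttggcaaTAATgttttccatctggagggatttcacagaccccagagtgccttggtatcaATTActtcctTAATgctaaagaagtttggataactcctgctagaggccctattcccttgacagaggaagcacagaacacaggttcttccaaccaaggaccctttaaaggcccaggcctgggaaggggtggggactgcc
The Itgb8 window holds 0 ATTA and 0 GTCAC cores and is 62.4% G and C. The Itga8 window holds 1 of each core (56.4% G and C), and that of Lama2 holds 4 ATTA cores and 0 GTCAC (47.2%). Promoters were found for 22 of the 33 genes, 3 of which had 2 windows, and 8 of the 22 genes held ATTA (36.4%), against 54.9% of 32851 promoter windows of this length. GTCAC was found in 7 of the 22 genes (31.8%) and in 39.8% of all windows. The median G and C content was 58.8% in the windows of these genes and 52.4% in all. These letters are a description of the windows and show no binding site, and a window without them says nothing about sites elsewhere.

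**Figure D1:**
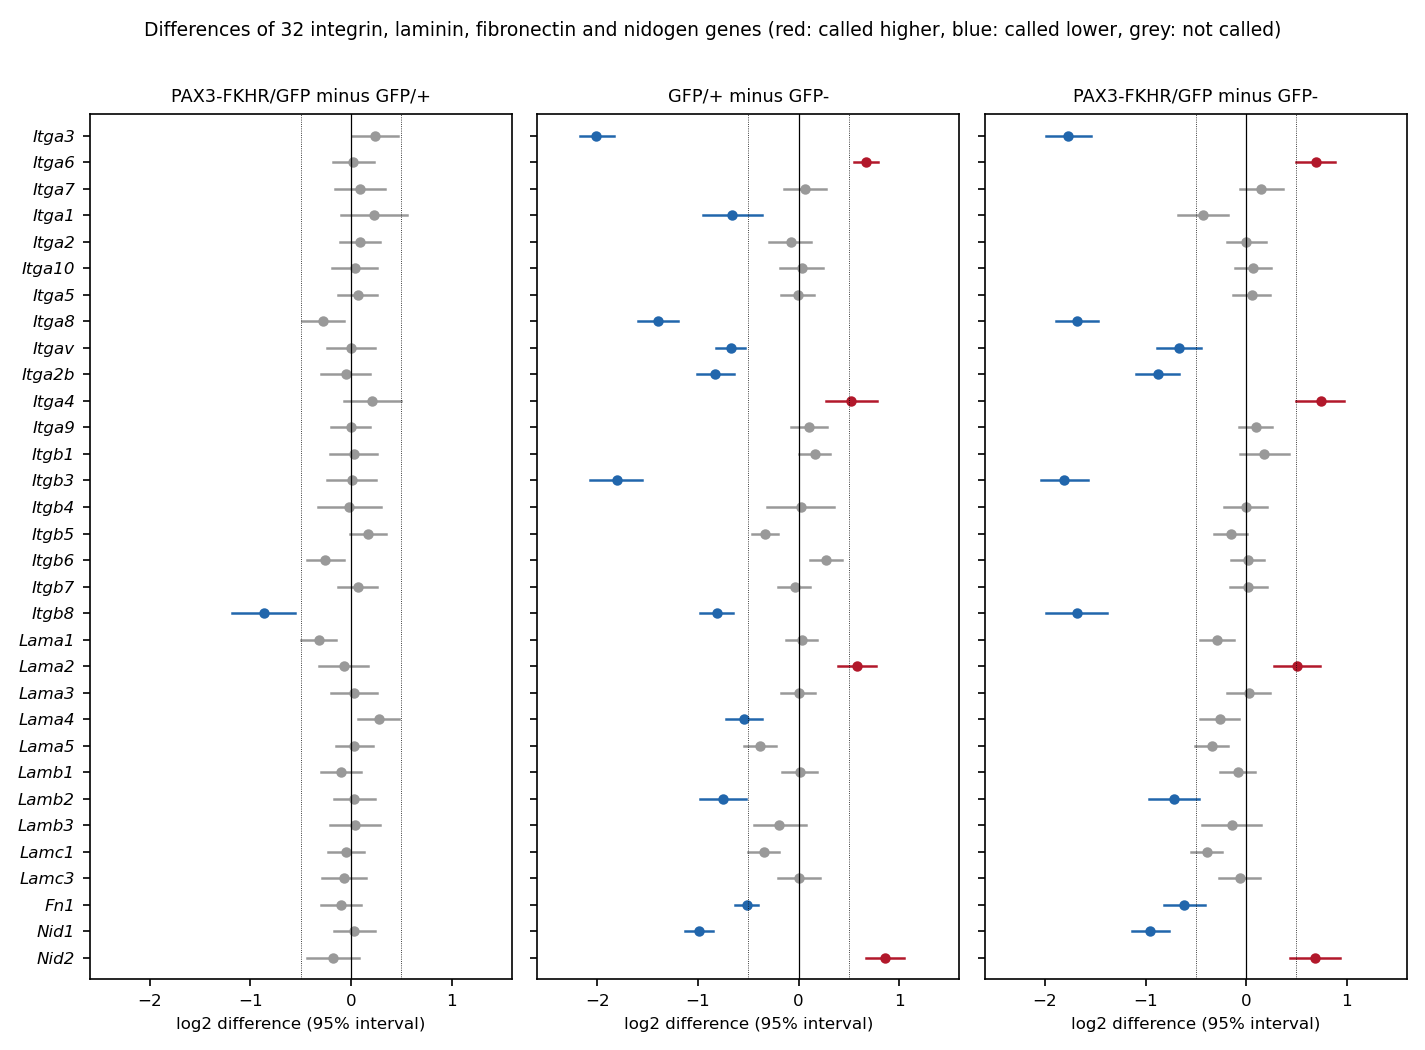
Log2 difference of each of the 32 genes (rows, by role) in the 3 comparisons (panels), with 95% intervals from limma; red and blue points were called higher and lower, and dotted lines mark the limit of 0.5. In the left panel only Itgb8 is called, while the other panels hold 15 and 13 called genes.

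The second comparison asked how GFP/+ cells, sorted for GFP made from a Pax3 allele, differ from GFP- cells of the same region. The study proposes that GFP perhaps persists in some cells of the ventral somite. GFP therefore does not show that the Pax3 locus is active in every sorted cell. In this comparison 15 of the 32 genes were called. Lower in GFP/+ cells were Itga3, Itgb3, Itga8, Nid1, Itga2b, Itgb8, Lamb2, Itgav, Itga1, Lama4 and Fn1, and higher were Nid2, Itga6, Lama2 and Itga4. The 11 lower genes are 34.4% of the 32, against 5.05% of all genes, and the 4 higher ones are 12.5%, against 1.92%. The median difference over the 32 was -0.06, beside 0.01 for all genes. Counted by probe set, 18 of 72 were called (25%), against 4.65% on the whole array. With a mean over the probe sets of a gene 11 genes were called, of which 10 were among the 15.

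The third comparison set PAX3-FKHR/GFP cells against the same GFP- arrays, so that genotype and GFP differ together. It called 13 of the 32 genes, 9 lower and 4 higher. The 9 lower genes, Itgb3, Itga3, Itga8, Itgb8, Nid1, Itga2b, Lamb2, Itgav and Fn1, are 28.1% of the 32, against 5.2% of all genes on the array. The higher genes Itga4, Itga6, Nid2 and Lama2 are 12.5%, against 2.63%. The median difference was -0.11, beside 0.01 for all genes, and 17 of 72 probe sets were called (23.6%, against 5.35%). Itga1 and Lama4, called in GFP/+ cells, did not pass here.

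Of the alpha chains that bind laminin, Itga3 and Itga6 moved in opposite directions. Itga3 encodes the alpha3 chain, a laminin receptor of many epithelia. It read 6.21, 6.11 and 5.85 in PAX3-FKHR/GFP, 5.85, 5.78 and 5.81 in GFP/+ and 7.70, 7.90 and 7.87 in GFP- arrays. Both GFP positive groups lay far below GFP- cells, and they overlapped with each other. GFP/+ cells stood at 24.8% of the GFP- level (log2 difference -2.01 ± 0.0734, adjusted p = 7.07e-08) and PAX3-FKHR/GFP cells at 29.4% (-1.77 ± 0.102, adjusted p = 4.41e-07). The difference between GFP/+ and GFP- cells was -1.03 ± 0.0991 in another probe set of Itga3, also called (adjusted p = 8.61e-05), and -0.01 ± 0.0741 in the remaining one. Averaged over all 3, Itga3 differed from GFP- cells by -1.02 in GFP/+ and -0.90 in PAX3-FKHR/GFP cells and was still called.

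Itga6, the alpha6 chain, pairs with beta1 or beta4 and is a main laminin receptor of the early myotome. Its arrays read 9.54, 9.59 and 9.83 in PAX3-FKHR/GFP, 9.65, 9.68 and 9.56 in GFP/+ and 8.98, 8.94 and 8.98 in GFP- cells. Every GFP positive array lay above every GFP- array. The rise was 1.59-fold in GFP/+ cells (0.67 ± 0.0537, adjusted p = 2.37e-05) and 1.61-fold in PAX3-FKHR/GFP cells (0.69 ± 0.0872, adjusted p = 0.000307). The other probe set of Itga6 was called too, at 0.62 ± 0.0596 and 0.80 ± 0.0884. Itga7, a laminin-binding chain of differentiated muscle, was not called, with differences of 0.09, 0.06 and 0.15 in the 3 comparisons in the order given above.

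Among the alpha chains that bind collagen, Itga1 was the one called gene. It read 4.29, 4.67 and 4.63 in PAX3-FKHR/GFP, 4.04, 4.59 and 4.28 in GFP/+ and 5.06, 4.93 and 4.89 in GFP- arrays. The GFP- arrays were the highest, and the GFP positive groups overlapped with each other. The difference between GFP/+ and GFP- cells was -0.66 ± 0.131 (adjusted p = 0.0108), and that between PAX3-FKHR/GFP and GFP- cells was -0.43 ± 0.113 (adjusted p = 0.0364), under the fold limit. With a mean of 4.60 over the 9 arrays Itga1 lies below the median probe set of the array, 4.66. Its call was lost without GFP/+ replicate 3 (adjusted p = 0.0641) and without GFP- replicate 1 or 2 (0.0679 and 0.0612). Averaged with its other probe set the difference was -0.35. Itga2 and Itga10 differed by at most 0.09 in size in any comparison.

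Of the 4 RGD-binding alpha chains 3 were called lower against GFP- cells in both GFP positive groups. Over all genes 5.05% were called lower in GFP/+ and 5.2% in PAX3-FKHR/GFP cells. Itga8, whose product binds fibronectin and nephronectin with beta1, read 6.12, 6.18 and 6.34 in PAX3-FKHR/GFP, 6.48, 6.39 and 6.61 in GFP/+ and 8.04, 7.75 and 7.88 in GFP- arrays. No 2 groups overlapped, and PAX3-FKHR/GFP cells were the lowest. The fall against GFP- cells was 2.63-fold in GFP/+ cells (-1.40 ± 0.0885, adjusted p = 3.89e-06) and 3.2-fold in PAX3-FKHR/GFP cells (-1.68 ± 0.094, adjusted p = 3.34e-07). Between the GFP positive groups the difference was -0.28 ± 0.0943, with an adjusted p of 0.277. The other probe set of Itga8, at a mean of 3.47 or less in each group, was not called, and averaged over both the differences from GFP- cells were -0.81 and -0.96, still called.

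Itgav encodes the alphav chain, the partner of beta1, beta3, beta5, beta6 and beta8. It read 8.91, 9.22 and 9.28 in PAX3-FKHR/GFP, 9.25, 9.05 and 9.10 in GFP/+ and 9.85, 9.77 and 9.80 in GFP- arrays. All GFP positive arrays lay below the GFP- arrays, and the 2 GFP positive groups overlapped. Both differences from GFP- cells were -0.67 (SE 0.0629, adjusted p = 6.95e-05 in GFP/+, and SE 0.0994, adjusted p = 0.000981 in PAX3-FKHR/GFP). None of its other 4 probe sets, whose group means were at most 4.52, was called, and averaged over all of them the differences were -0.11 and -0.09, which did not pass.

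Itga2b, the alphaIIb chain of the platelet fibrinogen receptor, read 5.65, 5.41 and 5.31 in PAX3-FKHR/GFP, 5.39, 5.61 and 5.53 in GFP/+ and 6.30, 6.31 and 6.40 in GFP- arrays. The GFP- arrays lay above all others. GFP/+ cells differed from them by -0.83 ± 0.0817 (adjusted p = 0.000104) and PAX3-FKHR/GFP cells by -0.88 ± 0.0979 (adjusted p = 0.000108). Itga5, the main fibronectin receptor chain of the early embryo, was not called, with differences of 0.07, -0.01 and 0.06.

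Itga4 and Itga9 encode related chains that bind fibronectin outside the RGD motif, VCAM1 or tenascin. Itga4 read 6.24, 6.56 and 6.58 in PAX3-FKHR/GFP, 6.44, 6.30 and 6.0 in GFP/+ and 5.74, 5.83 and 5.61 in GFP- arrays. Both GFP positive groups were above GFP- cells without overlap. PAX3-FKHR/GFP cells stood at 167% of the GFP- level (0.74 ± 0.106, adjusted p = 0.000821). GFP/+ cells stood at 144% (0.52 ± 0.114, adjusted p = 0.0173), a call that was lost without GFP/+ replicate 1 or 2 (adjusted p = 0.0552 and 0.0944) and without GFP- replicate 1, 2 or 3 (0.0721, 0.0556 and 0.0963). Another probe set of Itga4 was called in PAX3-FKHR/GFP against GFP- cells (0.80 ± 0.136, adjusted p = 0.00259) and gave 0.46 ± 0.125 in GFP/+ cells (adjusted p = 0.052). Averaged over its probe sets Itga4 differed by 0.24 and 0.40 and was called in neither comparison. Itga9 was not called, at 0.10 in both comparisons with GFP- cells.

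Of the 7 beta chains, Itgb3 and Itgb8 were called. Itgb3, which pairs with alphaIIb on platelets and with alphav in other cells, read 3.54, 3.43 and 3.26 in PAX3-FKHR/GFP, 3.57, 3.20 and 3.45 in GFP/+ and 5.33, 5.25 and 5.07 in GFP- arrays. All 6 GFP positive arrays lay below the median probe set of the array and all 3 GFP- arrays above it, and the GFP positive groups overlapped. The difference from GFP- cells was -1.81 in both (SE 0.114, adjusted p = 3.64e-06 in GFP/+, and SE 0.105, adjusted p = 4.65e-07 in PAX3-FKHR/GFP). No percentage is given, because the GFP positive arrays lie in the dim range. Its dimmer probe set gave -0.05 and -0.18, and averaged over both the differences were -0.93 and -0.99, still called. Itgb1, the common partner of most alpha chains, was not called in any comparison (0.03, 0.16 and 0.18). For Itgb5, 4 probe sets lay between -0.33 and -0.31 in GFP/+ against GFP- cells, each past the adjusted p but under the fold limit. Itgb4, the hemidesmosome chain, Itgb6, a chain of epithelia, and Itgb7, a leukocyte chain, were not called.

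**Figure D2:**
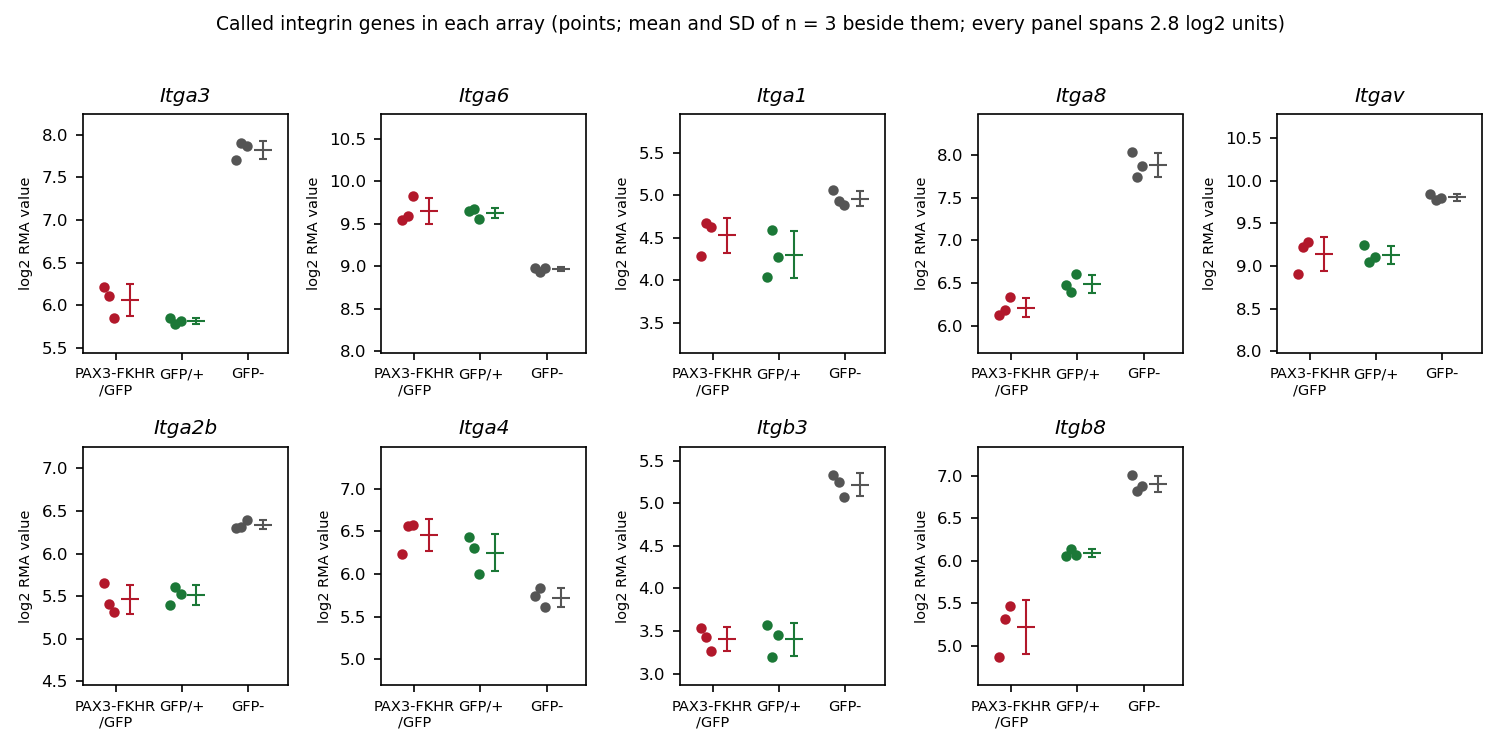
Log2 RMA value of the 9 called integrin genes in each array of the 3 groups (points), and to their right the mean and SD (n = 3). Itgb8 and Itga8 separate all 3 groups. In Itga3, Itgb3, Itgav, Itga2b and Itga1 both GFP positive groups lie together below GFP- cells, and in Itga6 and Itga4 above them.

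The laminin alpha chains decide which receptors a trimer binds. Lama2, the chain of the laminin of mature muscle, read 5.34, 5.70 and 5.55 in PAX3-FKHR/GFP, 5.63, 5.47 and 5.72 in GFP/+ and 5.03, 5.04 and 5.01 in GFP- arrays. It was higher in every GFP positive array, by 0.58 ± 0.0861 in GFP/+ (adjusted p = 0.00173) and 0.51 ± 0.101 in PAX3-FKHR/GFP cells (adjusted p = 0.00753). The latter lies just past the fold limit and was under it without PAX3-FKHR/GFP replicate 2 (0.42), replicate 3 (0.50 after rounding) or GFP- replicate 3 (0.50 after rounding).

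Lama4, a chain of vascular and embryonic mesenchymal laminins, read 6.33, 6.56 and 6.49 in PAX3-FKHR/GFP, 6.25, 6.08 and 6.22 in GFP/+ and 6.68, 6.83 and 6.65 in GFP- arrays. The 3 groups did not overlap, with PAX3-FKHR/GFP cells between the others. GFP/+ cells differed from GFP- cells by -0.54 ± 0.0801 (adjusted p = 0.00175), a difference of -0.49, under the fold limit, without GFP/+ replicate 2 or GFP- replicate 2. With the local pooled error test, which the study's methods name, the difference was -0.46, and averaged over both of its probe sets it was -0.48, each under the limit too. PAX3-FKHR/GFP cells differed by 0.28 ± 0.0925 from GFP/+ cells (adjusted p = 0.266) and by -0.26 from GFP- cells, neither of them called.

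The remaining alpha chains were not called. Lama1, the chain of the early embryonic basement membrane, differed by -0.32, 0.03 and -0.29 in the 3 comparisons, with adjusted p-values of 0.0884, 0.841 and 0.037. Lama5, a chain of epithelial and vascular basement membranes, differed by 0.03, -0.38 and -0.34, the last 2 past the adjusted p (0.00873 and 0.0146) but under the fold limit. Lama3, an epidermal chain with a mean of 3.93, differed by at most 0.03, and its 3 GFP- arrays held 1 identical value.

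Of the beta and gamma chains, which complete the trimer, Lamb2 was called. It encodes beta2, a chain of the neuromuscular junction and of kidney and vessel basement membranes. It read 5.62, 5.70 and 5.88 in PAX3-FKHR/GFP, 5.74, 5.66 and 5.71 in GFP/+ and 6.64, 6.50 and 6.23 in GFP- arrays. Both GFP positive groups lay below GFP- cells and overlapped with each other, at -0.75 ± 0.103 in GFP/+ (adjusted p = 0.001) and -0.72 ± 0.113 in PAX3-FKHR/GFP (adjusted p = 0.00147). Lamb1, the beta chain of most embryonic laminins, gave -0.10, 0.01 and -0.08. Lamc1, the gamma chain of most laminins, gave -0.05, -0.34 and -0.39, the last 2 under the fold limit with adjusted p-values of 0.0102 and 0.00382. Lamb3, an epidermal chain, and Lamc3 were not called and are dim.

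Fibronectin and the nidogens were all called against GFP- cells. Fn1 read 10.70, 10.89 and 10.96 in PAX3-FKHR/GFP, 10.96, 10.93 and 10.96 in GFP/+ and 11.51, 11.38 and 11.51 in GFP- arrays. Every GFP positive array was below every GFP- array. The difference was -0.51 ± 0.0511 in GFP/+ (adjusted p = 0.000111) and -0.62 ± 0.093 in PAX3-FKHR/GFP (adjusted p = 0.00113). The former lay near the fold limit and was -0.49 without GFP- replicate 1 or 3. Averaged with its dimmer probe set, Fn1 differed by -0.32 and -0.42 and was not called.

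The 2 nidogens moved in opposite directions. Nid1 read 8.30, 8.55 and 8.51 in PAX3-FKHR/GFP, 8.51, 8.41 and 8.33 in GFP/+ and 9.42, 9.36 and 9.45 in GFP- arrays, whereas Nid2 read 7.16, 7.57 and 7.54, then 7.53, 7.53 and 7.75, and then 6.80, 6.64 and 6.80. In neither gene did a GFP positive group overlap with GFP- cells, while the GFP positive groups overlapped with each other. Nid1 stood at 50.3% of the GFP- level in GFP/+ (-0.99 ± 0.0622, adjusted p = 3.66e-06) and at 51.5% in PAX3-FKHR/GFP cells (-0.96 ± 0.0834, adjusted p = 1.46e-05). Nid2 stood at 181% (0.86 ± 0.0836, adjusted p = 9.57e-05) and 160% (0.68 ± 0.111, adjusted p = 0.00188). Both proteins link laminin gamma1 to collagen IV.

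**Figure D3:**
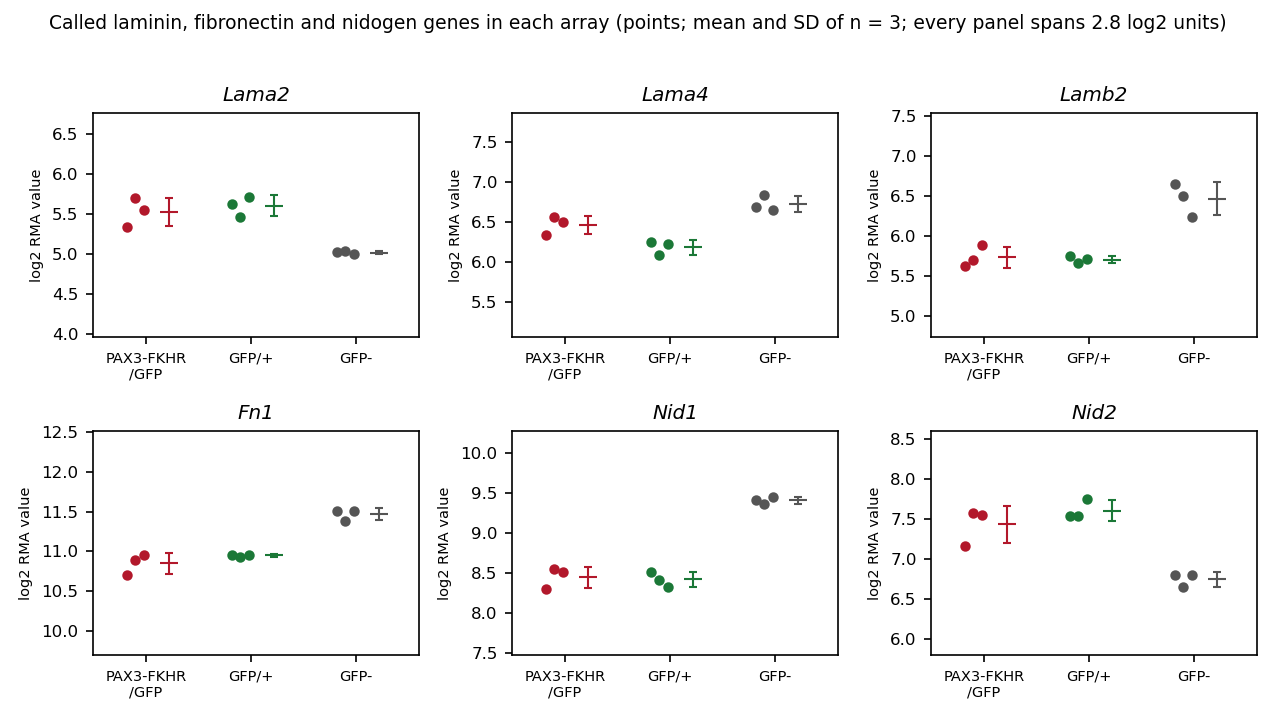
Log2 RMA value of the 6 called laminin, fibronectin and nidogen genes in each array (points) with mean and SD of n = 3, in the 3 groups. Lama2 and Nid2 are higher and Lamb2, Fn1 and Nid1 lower in both GFP positive groups than in GFP- cells, and Lama4 lies between for PAX3-FKHR/GFP.

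The 40 probe sets other than the brightest add what a single reading per gene leaves out. Of the 10 called genes with several probe sets in GFP/+ against GFP- cells, Itga3, Itga6 and Nid1 had another probe set called, and 4 of 8 had in PAX3-FKHR/GFP against GFP- cells, with Itga4 added. In no comparison was a gene called by another probe set alone. In 2 of the 40, GFP/+ replicate 1 read at least 1 log2 unit below both other arrays of its group. A further Nid1 probe set differed by -1.06 ± 0.268 in GFP/+ against GFP- cells (adjusted p = 0.0368), and by -0.68 without that array (adjusted p = 0.00546), and its call was lost without any 1 of the other 5 arrays of the comparison (0.051 to 0.193). Between PAX3-FKHR/GFP and GFP/+ cells the same probe set went from 0.07 to -0.32 without that array, with an adjusted p of 0.338. A further Lamc1 probe set differed by 0.86 ± 0.326 between PAX3-FKHR/GFP and GFP/+ cells (adjusted p = 0.369) and by 0.35 without that array, and between GFP/+ and GFP- cells by -0.87 ± 0.343 (adjusted p = 0.189) and -0.36. It was called in none of these.

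**Figure D4:**
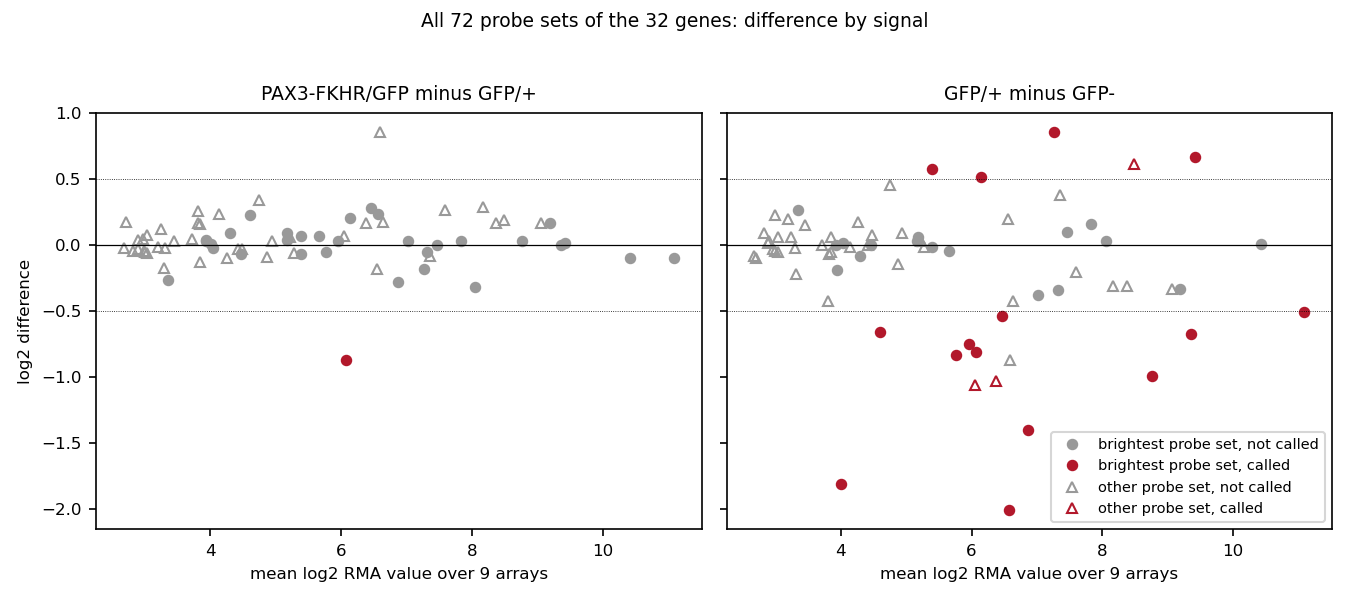
Log2 difference of all 72 probe sets (vertical axis) against their mean log2 RMA value over 9 arrays (horizontal axis), for PAX3-FKHR/GFP minus GFP/+ (left) and GFP/+ minus GFP- (right); circles are the brightest probe set of a gene, triangles the others, red those called. The single call on the left is Itgb8, and of the 18 calls on the right 3 are triangles.

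Other genes of matrix and adhesion were set beside these, from lists drawn up by function. Of 20 measured basement membrane and matrix ligands 11 were lower and 0 higher in GFP/+ than in GFP- cells, with a median difference of -0.53. The largest falls were those of Frem2, of the Fraser complex of epithelial basement membranes (-2.82 ± 0.105, adjusted p = 8.05e-08), Npnt, or nephronectin, the ligand of alpha8 beta1 (-2.66 ± 0.0785, adjusted p = 1.58e-08), and Tnc, or tenascin C (-2.17 ± 0.106, adjusted p = 6.02e-07). With PAX3-FKHR, Npnt (1.46 ± 0.0994), Tnc (0.93 ± 0.116) and Smoc1 (0.57 ± 0.0909) rose against GFP/+ cells, and Vtn, or vitronectin, fell (-0.81 ± 0.105). Thus Npnt rose 2.75-fold where its receptor chain Itga8 differed by -0.28 and was not called. PAX3-FKHR/GFP cells had 11 of the 20 lower than GFP- cells, led by Frem2 (-3.19 ± 0.117), Vtn (-2.27 ± 0.0879) and Fras1 (-1.94 ± 0.112), and 1 higher, Smoc1 (1.04 ± 0.0855). Over all genes 5.05% were called lower and 1.92% higher in GFP/+ than in GFP- cells. In PAX3-FKHR/GFP cells these shares were 0.715% and 1.31% against GFP/+ cells, and 5.2% and 2.63% against GFP- cells.

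Receptors other than integrins and intracellular adaptors were counted in the same way. Of 11 receptors and their partners 0 were called with PAX3-FKHR, 1 was lower in GFP/+ than in GFP- cells, the proteoglycan Sdc4 (-1.23 ± 0.114), and 2 were lower in the PAX3-FKHR/GFP group than in GFP- cells, Sdc4 (-1.02 ± 0.114) and the laminin receptor dystroglycan, Dag1 (-0.57 ± 0.0846). Of 19 adaptors and signalling genes 0 were called with PAX3-FKHR and 2 were lower against GFP- cells. Parvb, beta-parvin, differed by -0.91 ± 0.101 in GFP/+ and -1.09 ± 0.106 in PAX3-FKHR/GFP cells, and Tns3, tensin 3, by -0.62 ± 0.0597 and -0.74 ± 0.0968. In GFP/+ against GFP- cells the receptors called lower were 9.09% of their list and the adaptors 10.5%, beside 5.05% of all genes, with median differences of -0.22 and -0.10. In PAX3-FKHR/GFP against GFP- cells they were 18.2% and 10.5%, beside 5.2% of all genes. Against GFP/+ cells 0.715% of all genes were called lower and 1.31% higher with PAX3-FKHR.

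Markers of other cell types moved with GFP in the same arrays. Over all genes 5.05% were called lower and 1.92% higher in GFP/+ than in GFP- cells. Lower in GFP/+ than in GFP- cells were 7 of 12 endothelial genes (Cdh5, Flt1 and Tek the furthest), 8 of 8 primitive erythroid genes (Hba-x, Hbb-bh1 and Alas2), 3 of 5 megakaryocyte genes (Pf4, Tubb1 and Ppbp) and 2 of 8 leukocyte genes (Csf1r and Coro1a). So were 8 of 11 surface ectoderm and epithelial genes (Krt8, Cdh1 and Esrp1), 4 of 8 neural tube genes (Olig2, Neurog2 and Elavl3) and 6 of 9 genes of lateral and intermediate mesoderm (Hand2, Osr1 and Gata4). Higher were neural crest genes (Sox10, Foxd3 and Erbb3), 6 of 8 sclerotome genes (Uncx, Pax1 and Foxc2), the dermomyotome genes (Dmrt2, Myf5 and Pax3) and 11 of 15 muscle differentiation genes (Myh3, Tnnc2 and Myog), with 1 of the last lower (Myl4). GFP- arrays thus held blood, vessel and epithelial transcripts that both GFP positive groups held at lower level.

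The mean log2 value over the megakaryocyte genes, of a cell type in which Itga2b and Itgb3 are abundant, was 5.71 to 5.87 in GFP- arrays, 4.28 to 4.43 in GFP/+ and 4.36 to 4.49 in PAX3-FKHR/GFP arrays. Over the epithelial genes, of cells in which Itga3 is common, it was 7.14 to 7.20, 4.75 to 4.84 and 4.81 to 4.92. Over the endothelial genes, of cells that make Lama4 and Nid1, it was 6.36 to 6.45, 5.67 to 5.75 and 5.61 to 5.66. The neural crest genes, of cells that carry Itga4, stood at 6.44 to 6.54, 8.45 to 8.54 and 8.68 to 8.91. These pairs name only genes that moved as the markers did in GFP/+ against GFP- cells. In PAX3-FKHR/GFP against GFP- cells Lama4 differed by -0.26 and was not called, whereas the endothelial genes stayed low. Other chains described above as epithelial or epidermal were not called in GFP/+ against GFP- cells. Among them, Itgb4 (0.02), Itgb6 (0.27), Lamb3 (-0.19) and Lama3 are dim, and Lama5 differed by -0.38. Nor were Itgb7, the leukocyte chain (-0.04), and Itga7, the chain of differentiated muscle (0.06), called in that comparison. RMA values have no true 0, so that no marker can be called absent. The part of these cell types in the differences of the integrin and matrix genes was not tested. Between PAX3-FKHR/GFP and GFP/+ cells 0 endothelial, 0 megakaryocyte, 0 leukocyte and 0 epithelial genes were called. Over all genes only 0.715% were called lower and 1.31% higher there. In lists this short, 0 calls therefore do not show that these cell types were alike. Of the 8 sclerotome genes 3 were lower (Pax1, Foxc2 and Foxc1) and 1 higher (Uncx) with PAX3-FKHR, and of the 8 neural tube genes 1 was higher (Neurog1) and 1 lower (Neurog2). Among primitive erythroid, neural crest and lateral or intermediate mesoderm genes 1 each was higher, Hbb-y, Tfap2b and Prrx1. Their part in the fall of Itgb8 was not tested either.

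**Figure D5:**
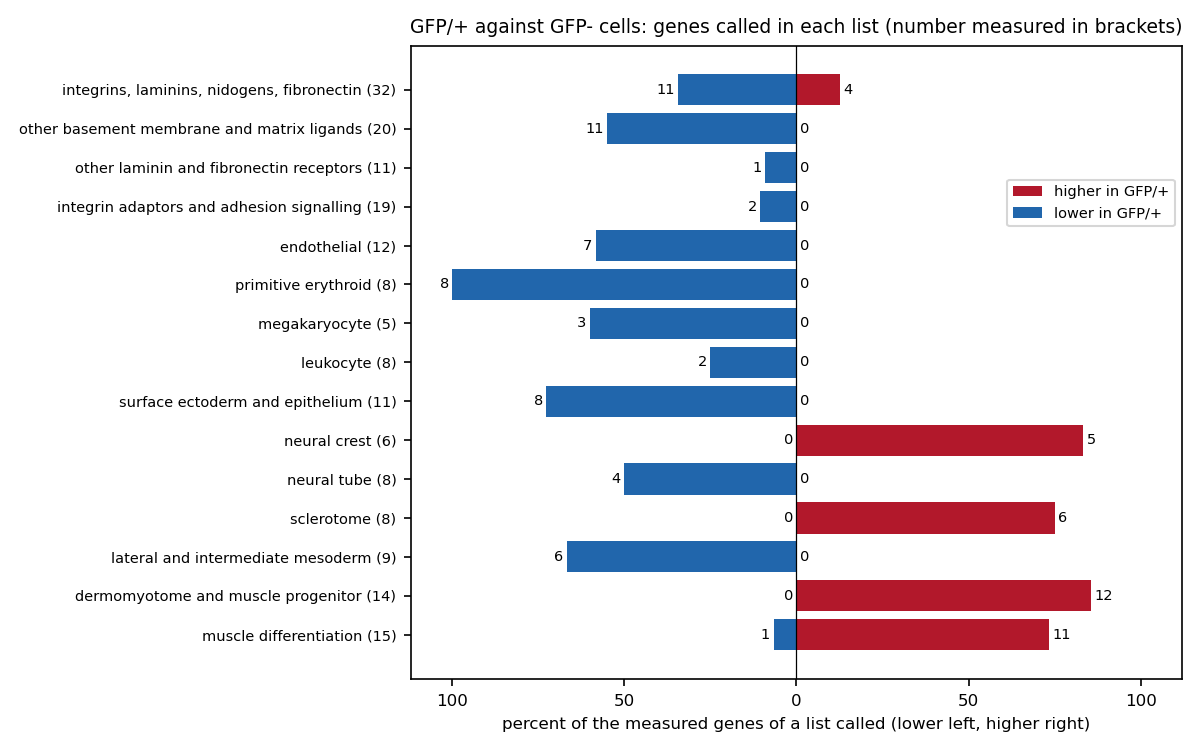
Percent of the measured genes of each list (rows, number measured in brackets) called lower (blue, left) and higher (red, right) in GFP/+ than in GFP- cells, with the count beside each bar. The integrin and matrix genes have 11 called lower and 4 higher, between the blood, vessel and epithelial lists, in which calls are lower, and the crest, sclerotome and dermomyotome lists, in which they are higher.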

How the data were processed

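Biotin-labelled RNA from 9 samples, 3 in each of 3 groups, was hybridized after two-cycle 3′ amplification. The authors deposited log2 expression values, obtained according to the submitters' processing notes with RMA, which corrects background, quantile normalizes arrays and summarizes each probe set. The RMA version is not given in the sources used here. Quantile normalization makes arrays alike in distribution and would hide a change common to the whole transcriptome. The protocol label speaks of forelimb buds, whereas titles, source and tissue give interlimb somites, and the samples were taken as somites. The GFP- cells are placed in GFP/+ embryos in the study's results and in wild-type embryos in its list of hybridized groups.

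Of 45101 probe sets, 64 Affymetrix controls were left out. The platform annotation gave 34945 of the rest 1 symbol, 932 several and 9160 none. Two-sided tests used lmFit and eBayes with an intensity trend from limma 3.58.1 (R 4.3.3), in a fit of the 6 arrays of each comparison, with Benjamini-Hochberg adjustment over 45037 probe sets. The fits were tested on simulated data. The limits on adjusted p and on the log2 difference, 0.5, are given in the study's methods. Those methods equate this log2 ratio with a slightly larger fold than 1.41, so genes near the limit could fall under that fold. The study used a local pooled error test, run here as an alternative. It also discarded probe sets called absent, which was not done here. Further alternatives were the probe set that stands for a gene, a filter on low values, centring, renewed quantile normalization, no trend, a fit of all 9 arrays, a replicate block, other fold limits and leaving out each array. The genes described and all lists were chosen with earlier results of these data known. Every called gene is given by array, the rest by difference or count, and up to 3 called genes of each other list are named by size of difference, marker genes mostly against GFP- cells. Promoter windows are RefSeq's, cut to the 250 bases before the start.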

Additional observations from a re-analysis of the deposited data

How the results depend on the processing

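The number of the 32 genes called was 1 for PAX3-FKHR/GFP against GFP/+, 15 for GFP/+ against GFP- and 13 for PAX3-FKHR/GFP against GFP- cells. It moved by over 1.5 times with a log2 limit of 1, to 0, 3 and 4, and when single arrays were left out in the first comparison. Leaving out each array in turn gave 0 to 1, 12 to 14 and 12 to 13 genes. Without PAX3-FKHR/GFP replicate 2, or without GFP/+ replicate 1, 2 or 3, the first count was 0. The mean of a gene's probe sets gave 1, 11 and 10 genes, with Lamc1 gained in the second comparison. No fold limit gave 1, 19 and 17, with Itgb5, Itgb6, Lama5 and Lamc1 gained in the second and Itga1, Lama1, Lama5 and Lamc1 in the third. The filter on low values left 24 genes and gave 1, 13 and 12, without Itgb3 and Itga1, which it removes. The local pooled error test gave 1, 14 and 13. With the replicate block the counts were 1, 15 and 13. Arrays of 1 number deviated together by a correlation of -0.096 to 0.105, and 2, 4 and 2 of 6 arrays correlated best with their own number. In GFP/+ against GFP- cells, where 4 did, the correlations were 0.009 to 0.094. With 3 arrays per group these values cannot settle whether arrays of 1 number belong together. Of 432 values of called genes recomputed under the alternatives, 404 kept call and direction, 28 lost the call and 0 reversed. Of 29 calls 19 were never lost under these settings, apart from the log2 limit of 1 and from the filter on low values, which removes Itgb3 before the test and gives no value for it. The cause of the lost calls was not tested. Signal limits the 8 genes at or under the median of the probe sets (4.66), of which Itga1 and Itgb3 were called and Itga2, Itgb4, Itgb6, Lama3, Lamb3 and Lamc3 were not.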
